A study of Mus musculus with 6 samples.

Results

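Integrin genes were followed across the leukocytes of the mouse peritoneal cavity, and 10 of them, *Itgam*, *Itgb2*, *Itgal*, *Itga4*, *Itga6*, *Itgb1*, *Itgb7*, *Itgb3*, *Itgb5* and *Itgav*, are described here. They were taken by name from a single-cell table of 55538 features, 28 of which carry an integrin name (Itga or Itgb). Levels were compared between cell classes set by counts of transcripts (unique molecular identifiers, UMIs) of lineage genes. A B cell held at least 4 UMIs of *Cd79a* and *Cd79b*, the signalling chains of the B cell receptor, and B cells were split by whether they held any UMI of *Bhlhe41*, *Zbtb32* or *Cd5*, genes associated with the innate-like B-1 lineage. A T/NK cell held at least 2 UMIs of *Cd3d*, *Cd3e* and *Nkg7*. A macrophage (MΦ) held at least 2 UMIs of *Csf1r*, *Adgre1* and *Fcer1g* with at most 2 of the B cell genes and at most 1 of the T/NK genes, and MΦs were split by *Gata6*, the transcription factor of large resident peritoneal MΦs, and *Irf4*, a factor of small peritoneal MΦs and dendritic cells. None of the 10 integrins was used in these rules.

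The study asked how peritoneal MΦs respond to the engulfment of dying cells (efferocytosis) and what the receptor MerTK contributes. Cells were washed from the peritoneum of C57BL/6 mice (C57BL/6J in the study's methods) aged 8 to 12 weeks, of genotype MerTK +/+ or MerTK -/-, left to adhere for 1 h, and then given either a change of medium (control) or apoptotic Jurkat cells, a human T cell line killed with UV light, for 2 h or 6 h. Each of the 6 combinations of genotype and treatment is 1 library of cells pooled from 3 mice, so no condition has a second library. Apoptotic cells were human, and only mouse genes were counted.

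Integrins are heterodimers of an α and a β chain that bind extracellular matrix, complement fragments or receptors on other cells. The β2 family is restricted to leukocytes, with αM (CD11b) pairing with β2 (CD18) to form the complement receptor of myeloid cells, and αL (CD11a) pairing with β2 to form the lymphocyte receptor for ICAMs. The α4 chain pairs with β1 or β7 and guides lymphocytes to VCAM-1 and MAdCAM-1, α6 with β1 binds laminin, and αv with β3 or β5 binds bridging proteins that coat apoptotic cells. Surface integrins also need both chains to leave the endoplasmic reticulum, so the transcript of a single chain says little about the receptor on the membrane.

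Of 7760 barcodes, 7665 passed the filters on cells, with 4234786 to 10287079 UMIs per library and a median of 2776 to 5786.5 UMIs per cell. Although all 6 libraries are labelled as peritoneal MΦs, MΦs by the rule made up 2773 cells (36.2%), B cells 2948 (38.5%) and T/NK cells 514 (6.71%). A further 153 cells that met both lymphocyte rules, with a median of 10045 UMIs, were left out, and 1277 cells (16.7%) met no rule, of which 514 came from library 6. Genes outside the rules were checked at a limit of 10% of the cells of a class. In their own class 6 of 6 B cell markers, 7 of 7 T/NK markers and 7 of 8 MΦ markers passed. B cells also passed for 3 T/NK and 2 MΦ markers, T/NK cells for 1 B cell and 2 MΦ markers, and MΦs for 0 of either lymphocyte list. Cells meeting both lymphocyte rules passed for all B cell and T/NK markers. Summed B cell markers were at 2722 CPM in B cells and 189 CPM in T/NK cells, and T/NK markers at 232 and 1666 CPM. Mesothelial genes were at 0 in all 3 classes. In 28 cases a barcode sequence occurred in more than 1 library (56 barcodes). Each barcode carries a library number from 1 to 6 that no label ties to a sample, so conditions were not compared. Classes were compared within each numbered library by direction, and no test was run. Each level below is in CPM, the gene's UMIs scaled to the total UMIs of the class, with its exact Poisson 95% interval, followed by the lowest, median and highest of the 6 libraries. *Mertk*, the targeted gene, was at 17.4 to 33.9 CPM in the MΦs of the 6 libraries and was not used to assign any of them. Intervals cover counting error only, and levels were compared within a gene and never between genes. Libraries are of the 5′ end of transcripts.

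By pooled CPM over MΦs, B cells and T/NK cells, the 10 integrins fell into 3 patterns. *Itgam*, *Itgb2*, *Itga6*, *Itgb1* and *Itgb5* were highest in MΦs, *Itgal*, *Itga4*, *Itgb7* and *Itgb3* were highest in T/NK cells, and *Itgav* was highest in B cells. For *Itga4* T/NK cells were above B cells in only 3 of 6 libraries. After every cell had been thinned to 1500 UMIs, the intervals of the shares of cells with a UMI overlapped between T/NK and B cells for *Itga4* and between B cells and MΦs for *Itgav*, and the same class led apart from the others for the remaining 8. Within MΦs, *Itga6*, *Itgb1*, *Itgb7* and *Itgb5* passed the 2-fold limit as higher in cells with *Gata6*, and *Itgav*, *Itga4* and *Itgal* as higher in cells with *Irf4*.

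**Figure D1:**
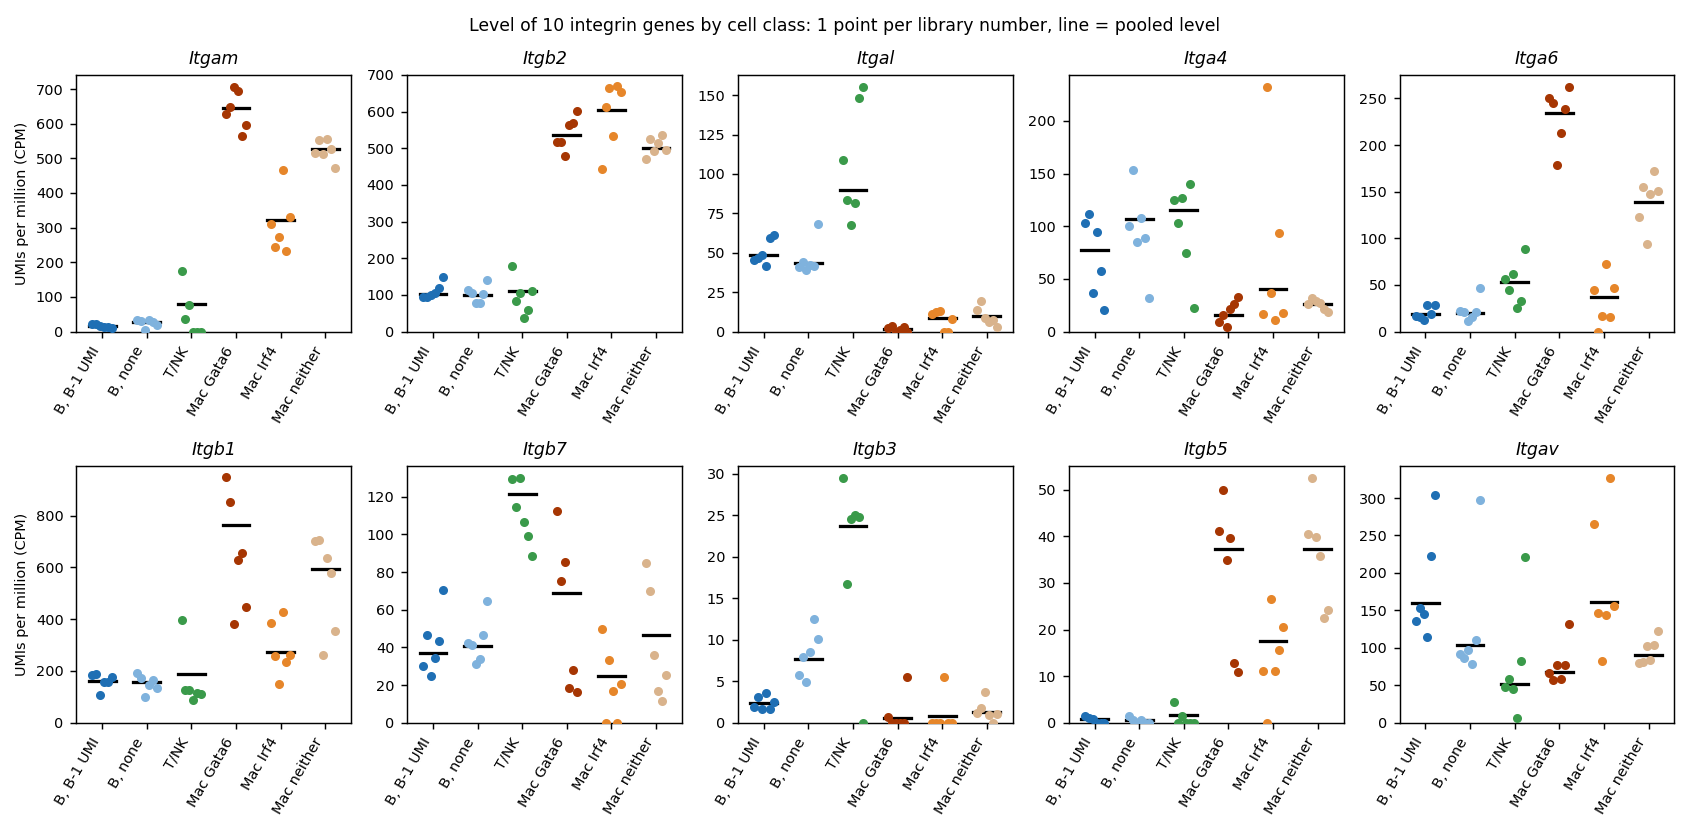
Level of the 10 integrins (CPM, linear axes from 0) in B cells with and without a B-1 gene UMI, T/NK cells and MΦs (Mac) with *Gata6*, with *Irf4* or with neither, with 1 point for each of the 6 libraries (1 to 6 from left to right) and a black line for the value pooled over libraries. *Itgam* lies at 565 to 706 CPM in MΦs with *Gata6* and at 0 to 175 CPM in T/NK cells, while *Itgb7* in MΦs spreads over libraries.

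*Itgam*, on chromosome 7 of GRCm38 (chr7:128062640-128118491, plus strand), encodes αM, the chain by which peritoneal MΦs are usually gated, and overlaps *Gm49368*, which held 60 UMIs in all. MΦs held 541 CPM (529–553), with 450, 534 and 588 CPM in the lowest, median and highest library. B cells held 21.1 CPM (19.1–23.3) and ran from 12.3 through 21.0 to 26.2 CPM. No library of B cells came near the lowest library of MΦs, and the ratio of MΦs to B cells was 25.6-fold (log2 4.68, 4.53 to 4.83), with MΦs higher in 6 of 6 libraries. At 1500 UMIs per cell, *Itgam* was seen in 50.7% of MΦs (48.8–52.6%) and 2.82% of B cells (2.25–3.49%). Without thinning these shares were 78.4% and 8.01%, at median depths of 4426 and 5416 UMIs. The 250 bases before the start of *Itgam* and of *Itga4*, a gene of the opposite pattern, are shown to set their letters side by side (RefSeq, GRCm38.p6, plus strand, chr7:128062390-128062639 and chr2:79255176-79255425), with capitals for matches on either strand to GAGGAA, the core of the word read by the myeloid and B cell factor PU.1, or to TGTGGT, the core of the word read by RUNX factors.
Itgam: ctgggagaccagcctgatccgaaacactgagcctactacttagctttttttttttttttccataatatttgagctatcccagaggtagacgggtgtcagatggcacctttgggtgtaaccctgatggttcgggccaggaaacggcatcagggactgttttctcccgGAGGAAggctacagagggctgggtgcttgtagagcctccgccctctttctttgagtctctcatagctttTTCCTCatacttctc
Itga4: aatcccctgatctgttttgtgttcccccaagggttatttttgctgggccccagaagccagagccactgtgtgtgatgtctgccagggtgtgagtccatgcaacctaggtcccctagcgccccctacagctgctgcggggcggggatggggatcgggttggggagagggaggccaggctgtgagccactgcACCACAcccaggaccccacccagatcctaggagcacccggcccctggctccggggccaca
Of 32851 mouse promoter windows of this length, 23.3% hold GAGGAA and 14.0% hold TGTGGT, which do not overlap each other. *Itgam* has 2 matches to the PU.1 word, beginning 84 and 15 bases before the start, and none to the RUNX word. *Itga4* has 1 match to the RUNX word, 60 bases before the start, and none to the PU.1 word. Windows were at hand for 6 of the 10 genes. *Itgav* has 2 matches to the PU.1 word and *Itgb1* has 1, while *Itgb5* and *Itgb7* have none to the PU.1 or the RUNX word. A match is a string of letters and was not tested as a site.

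T/NK cells held 78.6 CPM of *Itgam* (66.3–92.6), but this rested on few cells. Across libraries the level was 0 in 3 and reached 175 CPM in library 1. Of the 143 *Itgam* UMIs in the class, 139 were found in 29 cells that also held a UMI of *Csf1r* or *Adgre1*, which had a median of 9794 UMIs, 464 CPM of *Itgam* and 11115 CPM of *Lyz2*, the lysozyme gene of MΦs. The remaining 485 T/NK cells, with a median of 2742 UMIs, held 4 *Itgam* UMIs, or 2.63 CPM (0.717–6.74), and 101 CPM of *Lyz2*. Summed over its 8 genes, the MΦ marker list stood at 2632 CPM in all T/NK cells (131 to 5394 over libraries), at 542 CPM in B cells (263 to 754) and at 19781 CPM in MΦs (17783 to 21956), with no marker at 0 in any of them. *Itgb1*, *Itgb2* and *Itga6* of T/NK cells also fell without the 29 cells, from 189 to 98.1 CPM, from 109 to 60.6 CPM and from 52.8 to 35.5 CPM, whereas *Itgal* (89.6 and 93.5 CPM), *Itga4* (115 and 127 CPM), *Itgb7* (122 and 127 CPM) and *Itgb3* (23.6 and 26.3 CPM) stayed at similar levels.

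*Itgam* in B cells was lower in those without MΦ marker transcripts. In the 230 B cells with a UMI of *Csf1r*, *Adgre1* or *Fcer1g*, *Itgam* stood at 112 CPM (97.3–128) and *Lyz2* at 2241 CPM. The other 2718 B cells had *Itgam* at 10.6 CPM (9.11–12.3), from 7.60 CPM in the lowest to 13.4 CPM in the highest library, and 5.96% of them held an *Itgam* UMI (5.10–6.92%). That level is 1.96% of the MΦ level. Among MΦ genes picked after values were seen, in the same cells *Lyz2* was at 0.0952% of its MΦ level, *Fn1* at 0.125%, *Thbs1* at 0.0987% and *Cd14* at 0.0878%, while *Cd68*, at 9.51%, and *Mrc1*, at 8.20%, stood above *Itgam*. In the 485 T/NK cells *Itgam* was at 0.487% and *Lyz2* at 0.668% of the MΦ level, and 0.619% of these cells held an *Itgam* UMI. NK cells are known to carry αM, but only 12 of these 485 cells held *Nkg7* with no *Cd3d* or *Cd3e* UMI. Those 12 had 0 *Itgam* UMIs, with an interval up to 90.5 CPM. The 473 cells with a *Cd3d* or *Cd3e* UMI held 4, or 2.71 CPM (0.737–6.93). The source of the *Itgam* UMIs of B cells was not tested further.

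*Itgb2* (chr10:77530252-77565708) encodes β2, the common partner of αM and αL. It was measured in every class, at 519 CPM (507–531) in MΦs, with 486, 530 and 553 CPM over libraries, and at 102 CPM (97.6–107) in B cells, with 92.3, 101 and 146 CPM. T/NK cells were at 109 CPM (94.7–126), and their libraries, from 37.5 to 179 CPM, spanned the whole range of the B cells. MΦ libraries lay above those of both lymphocyte classes, 5.09-fold over B cells and 4.75-fold over T/NK cells in the pooled values, with the same direction in 6 of 6 libraries each. B and T/NK cells did not differ beyond the counting interval (log2 ratio 0.10, -0.12 to 0.31, T/NK cells higher in 2 of 6 libraries). Without lymphocytes holding MΦ marker transcripts it was lower in T/NK than in B cells in 6 of 6 libraries (log2 -0.65, -0.96 to -0.34), and MΦs were 8.57-fold over T/NK cells.

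*Itgal* (chr7:127296260-127335138), which encodes αL, ran in the opposite order to *Itgam*. T/NK cells held 89.6 CPM (76.4–105), with 67.8, 96.3 and 155 CPM over libraries. B cells held 46.3 CPM (43.2–49.5), with 41.8, 45.4 and 64.2 CPM. MΦs held 7.55 CPM (6.17–9.15), and their highest library, at 13.9 CPM, lay below the lowest of B cells. *Itgal* was thus 6.13-fold lower in MΦs than in B cells and 11.9-fold lower than in T/NK cells, in 6 of 6 libraries each. The T/NK level was 1.94-fold that of B cells (log2 0.95, 0.70 to 1.20), higher in 6 of 6 libraries, and came to 2.01-fold when lymphocytes with MΦ transcripts were left out.

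A feature was called when it differed by at least 2-fold with 1 CPM added, among features with a mean of at least 5 CPM over the classes compared. Of 9 integrins that passed this filter between MΦs and B cells, 5 were called higher in MΦs, beside 18.7% of the 9394 features tested, and 2 lower, beside 21.8%. Higher were *Itgb5*, *Itgam*, *Itga6*, *Itgb2* and *Itgb1*, and lower were *Itgal* and *Itga4*, each in 6 of 6 libraries. Against T/NK cells all 10 passed, with the same 5 higher (19.3% of 9642 features) and *Itgb3*, *Itgal*, *Itga4* and *Itgb7* lower (24.5%). *Itgb3* did not pass against B cells, with 4.65 CPM in B cells and 1.02 CPM in MΦs.

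**Figure D2:**
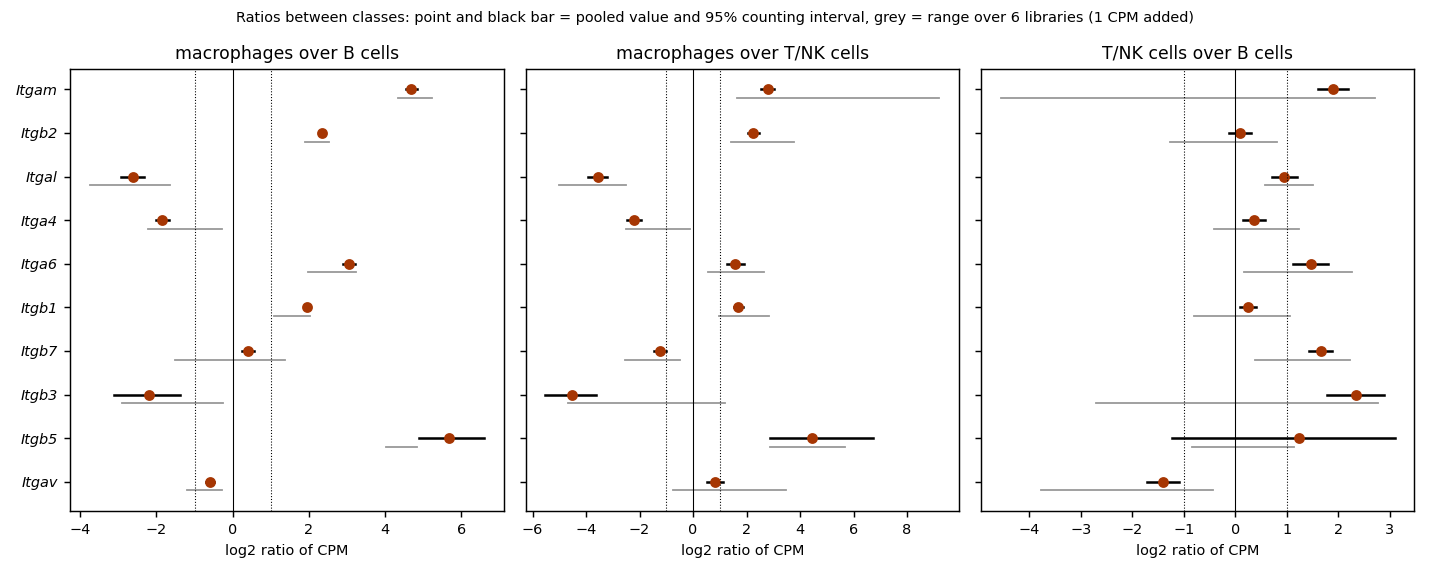
log2 ratio of CPM for the 10 integrins in MΦs over B cells, MΦs over T/NK cells and T/NK cells over B cells. Points and black bars give the pooled ratio with its 95% counting interval, grey bars the range over 6 libraries with 1 CPM added, and dotted lines a 2-fold difference. *Itgam* in T/NK cells over B cells has a pooled ratio of 1.90 but a range over libraries from -4.56 to 2.71.

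Among the laminin- and fibronectin-binding chains, *Itgb1* (chr8:128685654-128733200), the β chain shared by the largest set of α chains, stood at 611 CPM (598–624) in MΦs, with 257, 605 and 769 CPM over libraries. B cells held 159 CPM (153–165), with 104, 160 and 189 CPM. All MΦ libraries lay above all B cell libraries, and the pooled ratio was 3.84-fold. T/NK cells held 189 CPM, yet 5 of their 6 libraries lay between 87.6 and 128 CPM and library 1 was at 397 CPM, and the 485 T/NK cells without *Csf1r* or *Adgre1* were at 98.1 CPM, below B cells.

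*Itga6* (chr2:71745616-71858416), the α chain of a laminin receptor, stood at 157 CPM (151–164) in MΦs, with 91.9, 164 and 185 CPM over libraries. T/NK cells were at 52.8 CPM (42.8–64.5), between 25.0 and 88.8 CPM, and B cells at 19.1 CPM (17.1–21.2), between 12.1 and 35.2 CPM. The lowest MΦ library exceeded the highest library of either lymphocyte class. At equal depth *Itga6* was seen in 17.8% of MΦs, 5.82% of T/NK cells and 2.92% of B cells, and without thinning in 37.1%, 12.6% and 9.53%.

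*Itga4* (chr2:79255426-79333123), which encodes α4, was a lymphocyte gene in these cells. It was at 115 CPM (100–132) in T/NK cells, with 22.2, 114 and 140 CPM over libraries, and at 89.8 CPM (85.6–94.3) in B cells, with 25.0, 86.0 and 132 CPM. MΦs held 25.0 CPM (22.4–27.7), and their libraries ran only from 20.6 to 35.6 CPM. Library 6 was the lowest for *Itga4* in both lymphocyte classes, and there the B cells (25.0 CPM, 17.1–35.3) and MΦs (20.6 CPM, 14.1–29.0) had overlapping intervals, while the T/NK value rests on 1 UMI in 18 cells (0.562–124). T/NK cells did not separate from B cells, with a log2 ratio of 0.36 (0.15 to 0.57) and T/NK cells higher in 3 of 6 libraries. *Cerkl*, which overlaps *Itga4* on the other strand, held 60 UMIs in all cells, against 1661 of *Itga4* in B cells.

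*Itgb7* (chr15:102215995-102231944, minus strand) encodes β7, whose dimer with α4 binds the gut addressin MAdCAM-1. T/NK cells held 122 CPM (106–139), with 88.8, 110 and 130 CPM over libraries, and 16.9% of them had a UMI at equal depth (31.1% without thinning). B cells held 38.6 CPM (35.8–41.6), between 26.9 and 68.1 CPM. The T/NK libraries lay above all B cell libraries, 3.15-fold in the pooled values. MΦs held 50.9 CPM (47.2–54.9), but with a spread that put them above B cells in 3 libraries and below in 3, so that the pooled log2 ratio of 0.40 (0.25 to 0.55) has no direction shared by the libraries.

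The αv group was divided between classes. *Itgb5* (chr16:33829665-33949338), a partner of αv, was close to restricted to MΦs, at 35.8 CPM (32.7–39.1), with 19.2, 35.9 and 50.0 CPM over libraries. B cells had 13 UMIs in all, 0.703 CPM (0.374–1.20), and 12 of them lay in the 230 B cells with a MΦ marker UMI. T/NK cells had 3 UMIs, all in the 29 cells with *Csf1r* or *Adgre1*. In the other 485 T/NK cells the count was 0, so MΦs were at least 18.1-fold higher than the level that 3 counts over these cells would give (1.97 CPM). At equal depth 5.17% of MΦs (4.36–6.07%) and 0.0687% of B cells held an *Itgb5* UMI, and 14.7% and 0.373% without thinning.

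*Itgb3* (chr11:104608000-104670476), the β chain of the vitronectin receptor and of platelets, was a low transcript whose highest level lay in T/NK cells. These held 43 UMIs, 23.6 CPM (17.1–31.9), with 0, 24.6 and 29.5 CPM over libraries, and the library at 0 was library 6 with its 18 T/NK cells. B cells held 86 UMIs, 4.65 CPM (3.72–5.74), and MΦs 14 UMIs, 1.02 CPM (0.555–1.70). In 5 of 6 libraries T/NK cells were above B cells, 5.08-fold in the pooled values, and at equal depth *Itgb3* was seen in 4.22% of T/NK cells (2.63–6.37%), 1.03% of B cells (0.697–1.47%) and 0.149% of MΦs (0.0405–0.380%). Without thinning these shares were 7.78%, 2.65% and 0.505%. The platelet gene *Ppbp* was at 0 in T/NK cells, as were *Gp9* and *Gp1bb*, while *Pf4*, which MΦs share, was not.

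*Itgav* (chr2:83724397-83806916), which encodes αv, was the only member whose pooled level was highest in B cells, at 136 CPM (131–142), with 97.6, 125 and 301 CPM over libraries. MΦs held 90.4 CPM (85.4–95.5), with 76.2, 88.3 and 130 CPM, and were lower than B cells in 6 of 6 libraries by less than 2-fold (log2 -0.59, -0.69 to -0.49). T/NK cells held 51.7 CPM (41.8–63.3), between 6.25 and 222 CPM, of which the highest came from 10 UMIs in the 18 T/NK cells of library 6. Summed B cell markers ran from 93.8 to 1443 CPM over the T/NK libraries (189 CPM pooled, no gene at 0), and their part in the *Itgav* level was not tested. At equal depth B cells and MΦs did not separate, with *Itgav* in 14.0% of B cells (12.8–15.3%) and 13.8% of MΦs (12.5–15.2%), against 5.02% of T/NK cells (3.28–7.32%). The shares without thinning were 36.4%, 32.0% and 10.3%.

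**Figure D3:**
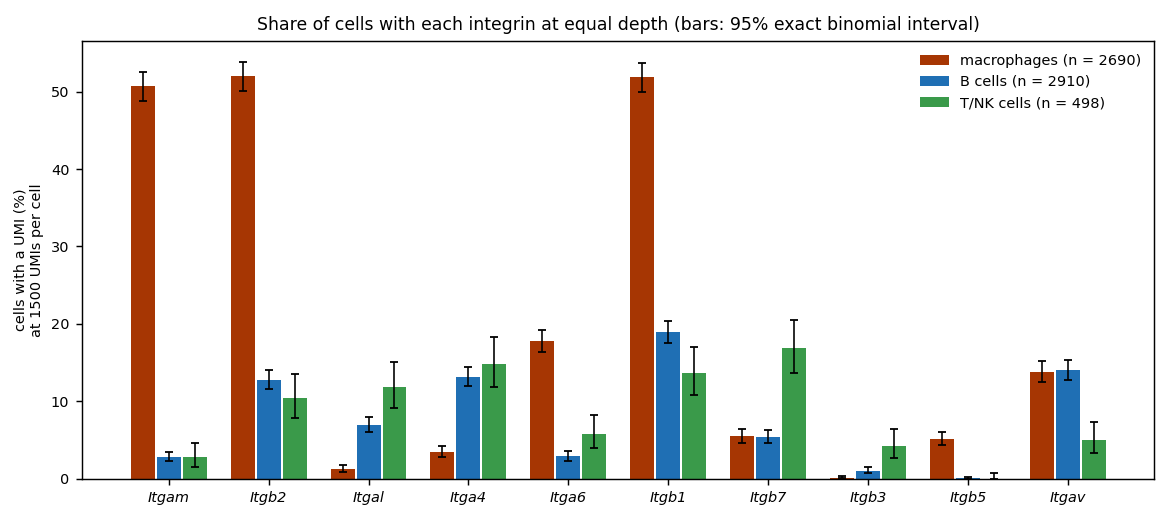
Share of MΦs, B cells and T/NK cells with a UMI of each integrin (%) after thinning every cell to 1500 UMIs, with exact binomial 95% intervals. Cells below that depth, 83 MΦs, 38 B cells and 16 T/NK cells, are left out. *Itgam*, *Itgb2* and *Itgb1* stand at 50.7% to 52.0% in MΦs, and *Itgav* has nearly equal bars in MΦs and B cells.

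Between the lymphocyte classes, 4 of 9 integrins were called higher in T/NK cells, beside 12.4% of the 9706 features tested, and 1 lower, beside 8.87%. *Itgb3*, *Itgam*, *Itgb7* and *Itga6* were higher and *Itgav* was lower, by 2.63-fold in the pooled values and in 6 of 6 libraries. The call of *Itgam* turned when lymphocytes with MΦ transcripts were left out, to a log2 ratio of -2.01 (-3.90 to -0.63) with B cells higher in 6 of 6 libraries. *Itgb7* (log2 1.75), *Itgb3* (2.41), *Itga6* (1.07) and *Itgav* (-1.70) kept their direction in that set of cells. *Itgb1* then came to -0.56, lower in T/NK cells in 5 of 6 libraries. With cells meeting both lymphocyte rules kept in both classes, *Itga6* (0.93) and *Itgav* (-0.67) no longer passed the limit, nor did *Itgb7* in MΦs over T/NK cells (-0.72).

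B cells with a UMI of *Bhlhe41*, *Zbtb32* or *Cd5* numbered 1356 and those without numbered 1592, with median depths of 6947 and 4282 UMIs, so the split also sorts cells by depth. Of 9 integrins tested none was called higher, beside 0.205% of 9271 features, and 1, *Itgb3*, was called lower, beside 0.852%. *Itgb3* was at 2.36 CPM (1.53–3.49) in cells with the B-1 genes and 7.70 CPM (5.89–9.90) in cells without, on 25 and 61 UMIs, and was lower in 6 of 6 libraries. Its mean of the classes sits just above the filter of 5 CPM and fell under it without library 2, 4, 5 or 6, with log2 ratios from -1.45 to -1.22. *Itgav* went the other way in 6 of 6 libraries, at 160 CPM (152–168) and 104 CPM (97.2–112), a ratio of 1.54-fold that stayed below the 2-fold limit. *Itga4* was lower with the B-1 genes in 5 of 6 libraries, at 77.4 and 106 CPM (log2 -0.46, -0.60 to -0.32).

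*Itgam*, often used as a surface marker of peritoneal B-1 cells, was not higher in B cells with the B-1 genes. It stood at 16.9 CPM (14.5–19.6) with and 26.6 CPM (23.2–30.5) without them, and B-1 markers outside the rule separated the classes only in part, at 1797 and 1388 CPM summed, so cells without the 3 genes cannot be read as lacking B-1 cells. The summed MΦ markers stood at 405 CPM (257 to 529 over libraries) and 725 CPM (272 to 1068), with none of the 8 at 0. Among B cells with no MΦ marker UMI the levels were 10.8 CPM (8.80–13.1) and 10.4 CPM (8.16–13.1), and the log2 ratio was 0.05 with an interval from -0.40 to 0.50. *Itgb2*, *Itgal*, *Itga6*, *Itgb1* and *Itgb7* gave log2 ratios between -0.15 and 0.16 over all cells of these classes, with intervals that include 0. In B cells with no MΦ marker UMI, *Itgb2* came to 0.18 (0.04 to 0.33) and *Itgb1* to 0.19 (0.07 to 0.31), each higher with the B-1 genes in 5 of 6 libraries.

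Among MΦs, 635 held *Gata6* without *Irf4*, 255 held *Irf4* without *Gata6*, 22 held both and 1861 neither, so the split covers the minority in which either factor was seen. Of the MΦs with *Irf4*, 113 came from library 6. *Csf1r* was seen in 46.7% and *Adgre1* in 35.3% of the cells with *Irf4*, against 87.6% and 72.4% of those with *Gata6*. *Fcer1g* was seen in 98.4% and 95.4%, so part of the cells with *Irf4* met the MΦ rule on *Fcer1g* alone. Whether all of them are MΦs was not tested. Genes of small peritoneal MΦs, some of which B cells share (12764 CPM), summed to 13711 CPM in the cells with *Irf4* (6467 to 19450 over libraries) and to 2053 CPM in those with *Gata6* (116 to 3571), and genes of large MΦs to 4952 and 13956 CPM. Cells with *Irf4* also held more B cell marker RNA, 95.1 CPM (31.1 to 155 over libraries, no gene at 0) against 7.36 CPM, more dendritic cell marker RNA, 28.4 CPM (16.6 to 49.0, *Xcr1* and *Clec9a* at 0) against 8.14 CPM, and more granulocyte marker RNA, 168 CPM (99.8 to 327, *S100a9* and *Epx* at 0) against 28.4 CPM. Their part in the integrin levels was not tested as such. Leaving out every MΦ with a B or T/NK gene UMI gave log2 ratios of -1.20 for *Itgav*, -1.51 for *Itga4*, 2.66 for *Itga6* and 1.54 for *Itgb1*. In that set *Itgb7* (1.67) also kept its call. *Itgb5* (0.98) fell below the 2-fold limit and *Itgal* (-1.83) under the filter, so neither was called.

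In MΦs with *Gata6*, *Itga6* was 6.26-fold higher than in those with *Irf4*, at 235 CPM (220–251) and 37.5 CPM (27.4–50.2). The *Gata6* libraries ran from 179 to 262 CPM and the *Irf4* libraries from 0 to 72.1 CPM, without overlap. *Itgb1*, its partner, was 2.77-fold higher, at 763 CPM (736–791) and 275 CPM (246–307), in 6 of 6 libraries. *Itgb7* (68.8 and 25.0 CPM) and *Itgb5* (37.3 and 17.5 CPM) were also called higher, in 5 and 4 of 6 libraries, and both fell below 2-fold without library 1, to 0.95 and 0.87 on the log2 scale, as did *Itgb5* without library 2 (0.87) or 4 (0.93). These 4 of 9 tested stand beside 7.57% of 8825 features.

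*Itgam* lay on the limit, at 644 CPM (619–670) and 322 CPM (291–356), a ratio of 2.00 that fell just under the 2-fold limit with 1 CPM added and was not called, although its libraries did not overlap, at 565 to 706 CPM against 234 to 466 CPM. MΦs with neither factor lay between, at 527 CPM, with libraries from 473 to 555 CPM. *Itgb2*, its partner, changed little, at 536 CPM in cells with *Gata6* and 605 CPM in cells with *Irf4* (log2 -0.17, -0.30 to -0.05, lower in 4 of 6 libraries).

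Called lower in MΦs with *Gata6* were 3 of 9, beside 10.8% of features. *Itgav* stood at 68.3 CPM (60.3–77.1) against 161 CPM (139–185) with *Irf4*, lower in 6 of 6 libraries, and 22.3% of the *Irf4* cells (17.2–28.0%) and 11.7% of the *Gata6* cells (9.32–14.5%) had a UMI at equal depth (44.7% and 30.2% without thinning). *Itga4* (15.5 and 40.0 CPM) was lower in only 4 of 6 libraries. Of its 48 UMIs in the *Irf4* cells, 11 lay in 1 cell of library 2, where 14 such cells gave 233 CPM, and without library 2 the log2 ratio went from -1.31 to -0.72 with 1 CPM added. *Itgal* (1.84 and 8.34 CPM) rested on 7 and 10 UMIs, was lower in 4 of 6 libraries, and fell under the filter without library 1, 2 or 3 (log2 -1.70, -1.83 and -1.37).

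Chains of the same receptor were counted in single cells at 1500 UMIs. *Itgam* and *Itgb2* were found together in 27.2% of MΦs (25.6–29.0%), 0.584% of B cells (0.341–0.934%) and 1.00% of T/NK cells (0.327–2.33%), and without thinning in 66.0%, 4.88% and 5.64%. *Itga6* and *Itgb1* were found together in 11.3% of MΦs (10.2–12.6%), in 19.7% of those with *Gata6* (16.6–23.0%) and in 0.810% of those with *Irf4* (0.0982–2.89%). Without thinning the laminin pair was in 33.2%, 56.4% and 8.63% of these cells. At 1500 UMIs it was found in 0.790% of B cells (0.502–1.18%) and 1.20% of T/NK cells (0.443–2.60%). Both pairs were most frequent in MΦs, and the intervals of the laminin pair did not meet between the MΦ classes.

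Lymphocyte pairs were rarer. *Itga4* with *Itgb7* was seen in 3.21% of T/NK cells (1.85–5.17%), 0.756% of B cells (0.474–1.14%) and 0.297% of MΦs (0.128–0.585%), and without thinning in 10.9%, 7.50% and 1.59%. *Itga4* with *Itgb1* was seen in 2.81% of T/NK cells, 2.71% of B cells and 1.97% of MΦs (1.48–2.57%), with overlapping intervals. *Itgal* with *Itgb2* was seen in 0.803%, 0.722% and 0.483% of these classes, on 4, 21 and 13 cells. The intervals again overlapped, so that pair did not separate them at this depth. Without thinning it was in 6.23% of T/NK cells (4.30–8.68%), 11.4% of B cells (10.2–12.6%) and 2.27% of MΦs (1.75–2.90%). Those intervals do not meet, but they compare classes of unlike depth. *Itgav* with *Itgb5* was seen in 0.558% of MΦs (0.312–0.918%) and in 0 of 2910 B cells (a count of 0 there limits the share to 0.103%). *Itgav* with *Itgb3* was seen in 6 B cells (0.206%), in 0 of 498 T/NK cells (limit 0.602%) and in 0 of 2690 MΦs (limit 0.112%).

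**Figure D4:**
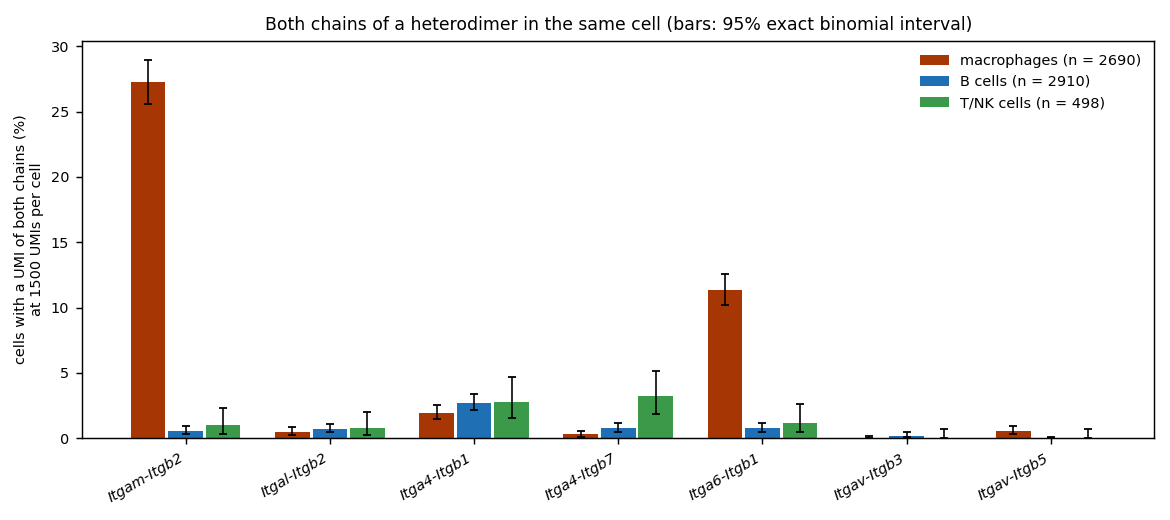
Share of MΦs, B cells and T/NK cells with a UMI of both chains of 7 heterodimers (%) at 1500 UMIs per cell, with exact binomial 95% intervals. *Itgam* with *Itgb2* reaches 27.2% and *Itga6* with *Itgb1* 11.3% in MΦs, and every other bar is below 4%.

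Levels also varied between libraries within a class, for some members by more than counting error. *Itgb7* in MΦs was at 92.1, 68.4, 45.6, 17.4, 16.2 and 23.1 CPM in libraries 1 to 6, a 5.70-fold span from library 5 (10.0–24.7) to library 1 (83.3–102). MΦs with *Gata6* repeated the step, at 113, 75.1 and 85.4 CPM in libraries 1 to 3 and 18.2, 28.2 and 16.4 CPM in libraries 4 to 6. B cells did not, with 35.2, 43.7, 26.9, 34.3, 44.9 and 68.1 CPM, and T/NK cells ran from 88.8 to 130 CPM with intervals that meet. The step in *Itgb7* was thus seen in MΦs and not in the lymphocytes of the same libraries, and since the numbers are tied to no genotype or time it is given as a value alone.

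*Itgb1* in MΦs was lowest in library 3, at 257 CPM (231–286), and library 6, at 341 CPM (313–371), against 584 to 769 CPM in the other 4. B cells were also lowest in library 3, at 104 CPM (93.5–115), but not low in library 6, at 160 CPM. *Itga4* in B cells was at 102, 132, 53.0, 101, 71.2 and 25.0 CPM, a 5.29-fold span, while MΦs stayed within 1.73-fold with intervals that meet. *Itgav* was highest in library 6 in all 3 classes, at 301 CPM (272–333) in B cells, 222 CPM (106–408) in T/NK cells and 130 CPM (113–150) in MΦs. Library 6 also had the lowest median depth (2776 UMIs) and the largest share of cells that met no rule (38.4%), and their part in these levels was not tested. *Itgam* and *Itgb2* were the steadiest in MΦs, at 1.31-fold and 1.14-fold from the lowest to the highest library.

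**Figure D5:**
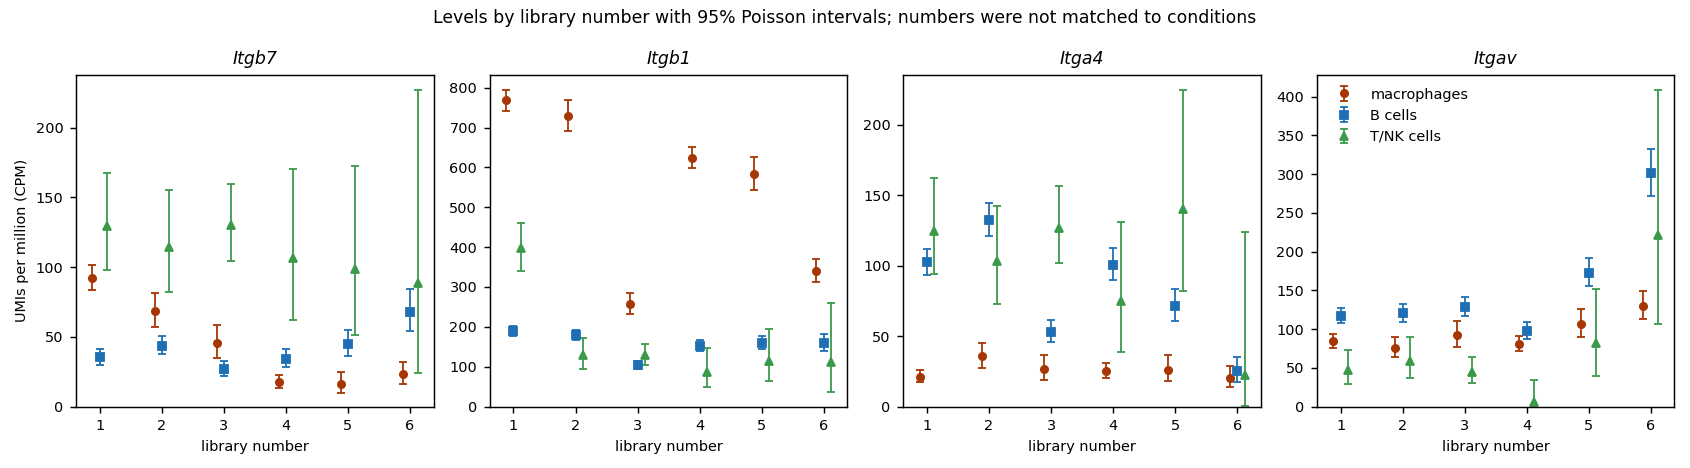
Levels of *Itgb7*, *Itgb1*, *Itga4* and *Itgav* (CPM) in MΦs, B cells and T/NK cells of the 6 numbered libraries, with exact Poisson 95% intervals. *Itgb7* in MΦs lies at 45.6 to 92.1 CPM in libraries 1 to 3 and at 16.2 to 23.1 CPM in libraries 4 to 6, and *Itgav* peaks in library 6 in all 3 classes.

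Of the 18 other integrin subunits, 4 passed the filter between MΦs and B cells. All 4 were called higher in MΦs, beside 18.7% of all features. Their median log2 ratio (1 CPM added) was 3.76, beside -0.14 over all features tested. They were *Itgb8*, a partner of αv that activates TGF-β (33.4 and 0.703 CPM), *Itga9* (38.9 and 1.24 CPM), *Itga5*, the α chain of the fibronectin receptor (71.5 and 6.06 CPM), and *Itgax*, the CD11c chain (50.2 and 5.90 CPM). Against T/NK cells the same 4 genes passed and were called higher, beside 19.3% of all features. They divided between the MΦ classes, where *Itga9* (46.8 CPM with *Gata6* and 7.50 CPM with *Irf4*) and *Itgb8* (34.9 and 11.7 CPM) went with *Gata6* like *Itga6*, and *Itgax* (2.10 and 226 CPM) and *Itga5* (50.4 and 109 CPM) went with *Irf4* like *Itgav*. With *Gata6*, 2 of the 4 tested were called higher and 2 lower, beside 7.57% and 10.8% of all features. Between T/NK and B cells none of the 2 tested was called, beside 12.4% higher and 8.87% lower of all features.

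Of 39 genes of the integrin activation and adhesion complex, which couples integrin tails to actin and to kinases, 32 were tested between MΦs and B cells, with 12 higher and 5 lower, beside 18.7% and 21.8% of all features, and a median log2 ratio of 0.75. The parvins changed over, with *Parvb* at 89.2 CPM in MΦs and 6.87 CPM in B cells and *Parvg* at 1.81 and 40.5 CPM. The tetraspanins *Cd9* (864 and 161 CPM) and *Tspan32* (10.3 and 56.3 CPM) also went opposite ways. T/NK cells differed from B cells in 1 gene higher and 6 lower of 32, beside 12.4% and 8.87% of all features. Higher was *Actn1*, an actin cross-linker (103 and 13.3 CPM), and lower were among others the kinases *Syk* (28.6 and 185 CPM), *Lyn* (29.7 and 143 CPM) and *Fgr* (12.1 and 28.6 CPM), with a median of 0.04 beside 0.05 over all features. Between MΦs with *Gata6* and with *Irf4*, 31 were tested, 1 was higher and 6 were lower, beside 7.57% and 10.8% of all features, among them *Actn1* (7.88 and 34.2 CPM), *Vcl* (12.6 and 37.5 CPM), *Pxn* (46.0 and 129 CPM) and *Zyx* (157 and 422 CPM), which encode focal adhesion proteins. None of 32 passed the limit between the B cell classes, where only 0.205% of all features were called higher and 0.852% lower.

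Of 40 genes of integrin ligands and matrix partners, 39 were in the table and 17 were tested between MΦs and B cells, with 14 higher in MΦs and 1 lower, beside 18.7% and 21.8% of all features, and a median log2 ratio of 3.79. *Thbs1*, thrombospondin-1, stood at 10571 and 163 CPM, *Fn1*, fibronectin, at 9117 and 175 CPM, *Tgm2*, transglutaminase 2, at 973 and 18.4 CPM and *Adam8*, a cell-surface metalloprotease, at 491 and 8.92 CPM. In T/NK cells 14 of 16 tested were lower than in MΦs, beside 19.3% of all features, and none higher, beside 24.5%. The 10 of 15 called higher in T/NK cells than in B cells, beside 12.4% of all features, include *Fn1* and *Thbs1*, which were at 66.5 and 34.9 CPM in the 485 T/NK cells without *Csf1r* or *Adgre1* and at 1264 CPM each in the whole class. Between the MΦ classes 9 of 16 were higher with *Gata6* and 2 lower, beside 7.57% and 10.8%, with a median of 1.21 beside -0.10. *Icam2*, a ligand of αL and one of the large MΦ markers, was at 101 and 15.0 CPM. *Mfge8* (38.9 and 10.0 CPM) and *Edil3* (27.9 and 6.67 CPM), which bridge αv integrins to phosphatidylserine on dying cells, and *Lamc1*, a laminin chain (94.3 and 28.4 CPM), were higher in the MΦs in which *Itgav* was lower and *Itga6* was higher.

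Over 36 profiles, 6 classes in each of 6 libraries, each integrin was set against 5520 features by Pearson's r of log2 CPM, as a description of points that share libraries, classes and depth. *Itgam* was most like *Fam20c* (0.979), *Cmtm3* and *Olr1* (0.968 each), and *Itgb2* most like *Ftl1* (0.976), *Slc15a3* (0.975) and *Lilr4b* (0.973). *Itgal* was most like *Gimap3* (0.967), *Gimap4* (0.95) and *Il2rb* (0.926). The closest features were *Plxdc2* for *Itgb5* (0.941), *Sod2* for *Itgb1* (0.942), *Os9* for *Itga6* (0.905), *Wdfy1* for *Itgav* (0.891), *AI467606* for *Itgb7* (0.887), *Kmt2e* for *Itgb3* (0.849) and *Def6* for *Itga4* (0.804). No member had another of the 10 among its 3 closest features. *Itgb3* and *Itgb5* could not appear there, since their means over the 36 profiles lay under the 20 CPM asked of a feature.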

How the data were processed

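Single-cell libraries were made with a 5′ 10x kit. Per the labels and the submitters' processing notes, the authors aligned reads to the human and mouse genomes (mm10) with Cell Ranger 2.2 and used Seurat 3.0, and they deposited raw UMI counts of mouse genes in 1 table for all libraries, with library numbers from 1 to 6 on the barcodes. Barcodes were kept with 500 or more genes, a log10 gene number over log10 UMI number of 0.8 or more, and under 10% mitochondrial UMIs, which left out 95. Scrublet in scanpy 1.11.5, with its expected doublet rate fixed beforehand, called 47 barcodes (0.606%), which were kept in and left out as an alternative. It called only 2 of the cells meeting both lymphocyte rules (1.31%) and 1 T/NK cell (0.195%). That alternative therefore cannot show the effect of doublets that were not called. Cells meeting both lymphocyte rules were left out. UMIs were summed per class and given as CPM, with exact Poisson, Clopper-Pearson and conditional intervals at 95% (scipy 1.17.1, numpy 2.4.6, pandas 2.3.3, python 3.11.15, figures with matplotlib 3.10.9). Calls used a 2-fold limit with 1 CPM added and a mean of 5 CPM, limits for a count of 0 used 3 counts, and thinning to 1500 UMIs used seed 7. The table ties no barcode to a sample, so it was treated as 1 sample. No test was run, and classes were compared by counting intervals and by direction within each library. The method was checked on simulated data. All 10 members are named. From the gene lists, genes past the limit with at least 20 CPM in 1 class were named, at most 4 for each list and comparison, largest first. Likeness was computed over features with a mean of at least 20 CPM over the 36 profiles, and up to 3 features are named for each member. *Lyz2*, *Fn1* and other MΦ genes of the lymphocyte check were chosen after values were seen. Alternatives were other filters, classes, added values, scalings, depths and leaving out each library. The members, classes and lists were chosen with earlier results of these data known. Positions are those of GENCODE vM21 on GRCm38, in which 55341 features were found by name, and promoter windows those of RefSeq on GRCm38.p6.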

Additional observations from a re-analysis of the deposited data

Results flagged for a closer look

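Cells that met no class rule were used in none of the comparisons. Pooled over libraries, they held more *Itgav* than any class of the 3, at 221 CPM (207–236), against 136 CPM in B cells, 90.4 CPM in MΦs and 51.7 CPM in T/NK cells. The level ran from 139 CPM in library 2 through a median of 162 CPM to 322 CPM in library 6, which supplied 514 of these 1277 cells. B cells of library 6 were at 301 CPM, but that library supplied only 284 of the 2948 B cells. The pooled levels thus weigh library 6 differently, and its part in the difference was not tested. Of them, 697 held 1 to 3 UMIs of *Cd79a* and *Cd79b*, and 296 held no UMI of the B cell, T/NK or MΦ rule genes. Their median depth was 2735 UMIs, and at 1500 UMIs per cell 22.4% held *Itgav*, against 14.0% of B cells, again pooled over libraries.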

How the results depend on the processing

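Every count and ratio of the 10 integrins was recomputed under 20 alternatives, or 21 for the splits, and those of the other gene lists were not. Of 208 counts of members, 195 came within 1.5 times the reported one. The 5 higher and 2 lower members between MΦs and B cells were called in every alternative run, and *Itgb3* joined the lower ones when the filter on features was set to 1 CPM or dropped. Counts lower in T/NK cells than in B cells went from 1 to 0 with cells meeting both rules kept and with stricter classes (*Itgav* at -0.67 and -0.68), and to 2 with pure classes. Counts lower in B cells with B-1 genes went from 1 to 0 with at least 1000 genes per cell, with called doublets left out and with 5 CPM added, because *Itgb3* lies near the filter or the limit. Counts lower in MΦs with *Gata6* went from 3 to 1 with stricter classes (*Itgav* at -0.94, *Itga4* at -0.96). Leaving out each library in turn gave 5 to 5 higher and 2 to 2 lower for MΦs over B cells, 5 to 5 and 3 to 4 for MΦs over T/NK cells (*Itgb7* at -0.98 without library 4), 4 to 5 and 1 to 1 for T/NK over B cells (*Itgal* at 1.13 without library 3), 0 to 0 and 0 to 1 for the B cell split (0 without library 2, 4, 5 or 6, with *Itgb3* still between -1.45 and -1.22), and 3 to 5 and 1 to 3 for *Gata6* over *Irf4* (1 lower without library 2). *Itgam* in T/NK over B cells turned to -3.56 with pure classes, to -0.20 with the median over libraries and to -1.68 in lymphocytes without MΦ marker UMIs. The last setting was chosen after seeing the data and also gave 2 members lower in T/NK cells. Of 970 single ratios under the other alternatives, 868 moved by less than their counting interval, 100 moved more and 2 called ratios turned. Changes of sign were counted as turned only for called ratios, and some uncalled ratios changed sign as well. Examples are *Itgb7* in MΦs over B cells (0.39, and -0.30 without library 1) and *Itgb1* in T/NK over B cells (0.25, and -0.78 with pure classes). The 5 members and 3 pairs highest in MΦs were the same in number at 1000 and 2000 UMIs. Levels under 5 CPM rest on few UMIs. Among them are *Itgb3* in B cells and MΦs (86 and 14 UMIs) and *Itgb5* in B and T/NK cells (13 and 3 UMIs). *Itgal* in MΦs with *Gata6* (7 UMIs) is another. No paired test of classes over the numbered libraries was run, and directions within each library are given instead. Conditions could not be compared, since no label ties a library number to a sample and every group of the labels holds 1 sample.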
